A study of Drosophila melanogaster with 9 samples.

Results

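The genes described here are 10 of the immune recognition and NF-kappaB genes of Drosophila melanogaster, taken by name from the 10242 gene identifiers measured in the fat body. They are the secreted Toll pathway sensors PGRP-SA and PGRP-SD, the receptors PGRP-LC and PGRP-LE of the IMD pathway, its inhibitors PGRP-LF and PGRP-LB, the transcription factors Rel, Dif and dl, and the inhibitor cact. All 10 were present in the files, and all 10 passed the filter on low values.

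Peptidoglycan recognition proteins (PGRPs) bind fragments of the bacterial cell wall. In the Toll pathway, sensors in the hemolymph start a chain of proteases that activates the Toll ligand, and the signal ends in the breakdown of Cactus, which otherwise holds the NF-kappaB proteins Dif and Dorsal in the cytoplasm. In the IMD pathway, PGRP-LC at the cell surface and PGRP-LE signal to Relish, an NF-kappaB protein that carries its own inhibitory part and is activated by cleavage. The fat body, which corresponds in part to the liver, is where both pathways switch on the genes of secreted antimicrobial peptides. Protein cleavage and nuclear entry, by which these factors act, are not seen in RNA.

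Polyadenylated RNA was sequenced from 3 groups of 3 libraries, each library from the fat bodies of 5 animals. The animals spent their first 21 h as eggs at 21 °C and the rest of their growth at 25 °C. The larvae, titled e3IL and labelled as being in the third instar, had the genotype UAS-LacZ/+; Lsp2-GAL4/+. The 2 other groups, labelled white pupa and, in the growth protocol, white prepupa, were at the stage at which the puparium forms, and are called by their sample titles, prepupae titled mitf and prepupae titled LacZ. All animals carried Lsp2-GAL4, a driver active in the late larval fat body, and either UAS-LacZ, which encodes beta-galactosidase of bacteria, or UAS-Mitf, the fly transcription factor of the MiT/TFE family. The labels conflict on the prepupae: the genotype label reads UAS-Mitf/+; Lsp2-GAL4/+ for all 6, and the column names in the files give LacZ for the libraries titled mitf and mitf for those titled LacZ. The Mitf transcript stood at 346.9, 370.4 and 407.1 in prepupae titled mitf and at 378.2, 384.9 and 410.7 in larvae. It stood at 35204, 68535 and 45647 in prepupae titled LacZ, so the level goes against the titles. Every direction between the prepupae below is therefore a direction between titles, and the high-Mitf libraries are those titled LacZ.

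Levels are normalised read counts as the authors scaled them. The values summed to between 17195800 and 27178600 per library, with an estimated 18499900 to 29073300 reads. Fat body markers were abundant in every library, and the summed level of the 11 that could be matched, of 12 listed, ran from 7428680 to 12501300 in larvae, 10266100 to 10571800 in prepupae titled mitf and 1131330 to 1559550 in prepupae titled LacZ. Lip3 stayed under 10 in all larvae and all prepupae titled LacZ. Of the 11, Lsp1beta had the highest mean in larvae (3722040), and Fbp1 in prepupae titled mitf (6366620) and in prepupae titled LacZ (795011). Between the prepupae, 9 of the 11 were lower in those titled LacZ at an adjusted p under 0.05 in limma, and 0 higher. All genes had 31.6% lower and 41.1% higher. In contrast, srp averaged 4803 in prepupae titled mitf and 4716 in prepupae titled LacZ. In whole-tissue RNA, a smaller number of cells of a type and less RNA per cell cannot be told apart.

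Between larvae and prepupae titled mitf, the IMD receptors, both IMD inhibitors and all 3 NF-kappaB genes rose, while PGRP-SA and cact fell. PGRP-LC, the main signalling receptor for Gram-negative peptidoglycan, rose by 3.17 on the log2 scale, and its neighbour PGRP-LF rose 15.0-fold. In prepupae titled LacZ, Rel stood 12.3-fold above larvae, while PGRP-LB and PGRP-LE did not differ detectably from the larvae. Set directly against each other, the prepupae titled LacZ had less PGRP-LC, PGRP-LE, PGRP-LF and PGRP-LB and more Rel, cact and PGRP-SA than those titled mitf.

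Calls required an adjusted p under 0.05 in limma, with adjustment over all 10139 genes tested. In prepupae titled mitf against larvae, 7 of the 10 genes were higher and 2 lower, against 34.8% and 31.7% of all tested genes. Set against larvae, the prepupae titled LacZ had 5 of them higher and 0 lower, against 46.3% and 32.2% of all genes (library totals gave 8 and 0, and trimmed mean scaling 4 and 1). Between the prepupae, those titled LacZ had 3 of the genes higher and 4 lower, against 41.1% and 31.6% of all genes. Groups did not overlap for 9, 6 and 8 of the 10 genes in these comparisons, against 71.1%, 79.9% and 76.1% of all genes. Between the prepupae the share called was near the background, so that count is no result about these genes. With library totals, all genes split into 4950 higher and 2335 lower between the prepupae, in place of 4166 and 3200, and into 5512 and 2469 in prepupae titled LacZ against larvae, in place of 4699 and 3260. The median log2 difference of the 10 genes was 1.30, 0.58 and -0.33 in the same order, beside 0.08, 0.50 and 0.22 for all genes. Scaling by library totals moved the last of the members' medians to 0.10, with all genes moved by 0.05, 0.45 and 0.41, and trimmed mean scaling moved all genes by -0.06, -0.25 and -0.20. The comparisons share groups, so their values are not independent of each other.

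**Figure D1:**
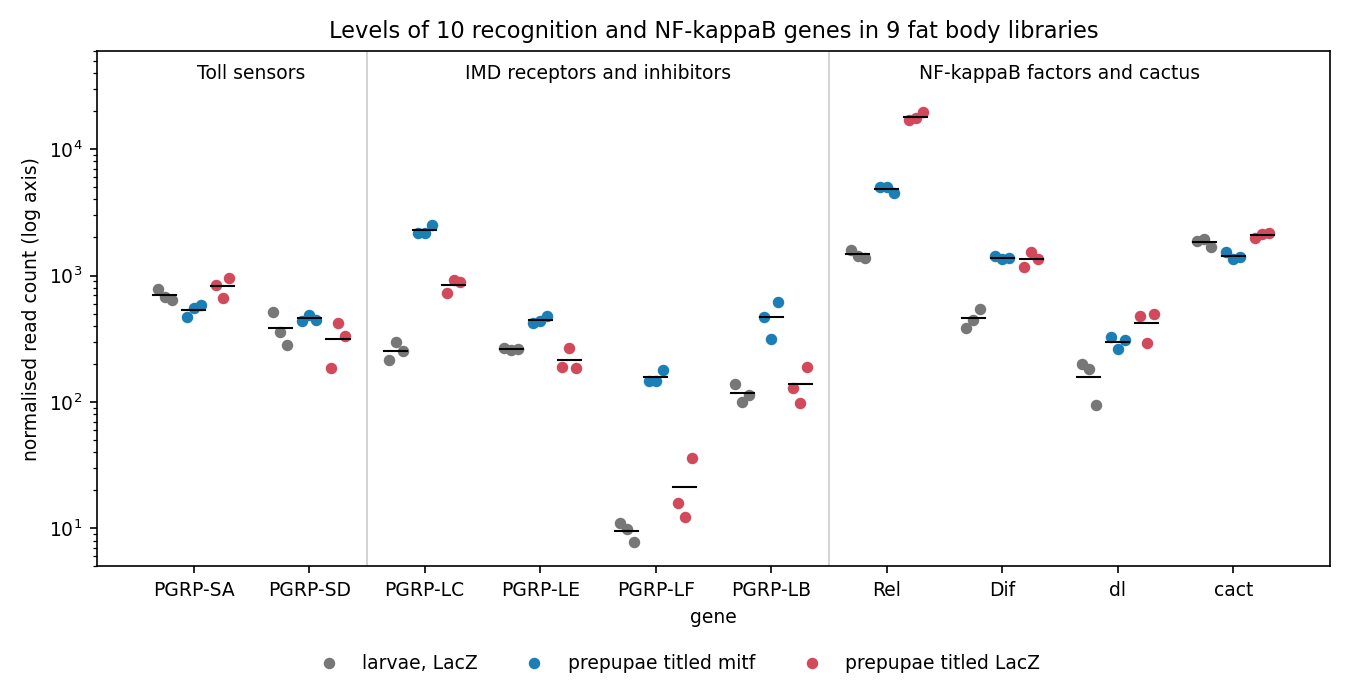
Normalised read counts (log axis) of the 10 genes in the 9 libraries, with points for libraries and black lines for group means. PGRP-LC, PGRP-LE, PGRP-LF and PGRP-LB were highest in prepupae titled mitf, and Rel was highest in prepupae titled LacZ, where it lay between 16933 and 19616.

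The Toll pathway sensors differed little between groups. PGRP-SA (FBgn0030310, chromosome X, 11561643 to 11562779, plus strand, BDGP6) encodes the secreted sensor of Gram-positive peptidoglycan. Its level was 783.8, 681.6 and 641.3 in larvae, against 466.9, 556.8 and 583.4 in prepupae titled mitf, with 840.7, 661.9 and 958.7 in those titled LacZ. The prepupae titled mitf were the lowest in every library, and the larvae overlapped with the prepupae titled LacZ. PGRP-SA was higher in prepupae titled LacZ than in those titled mitf by a log2 difference of 0.60 ± 0.15 (SE, adjusted p = 0.00495). Its fall from larvae to prepupae titled mitf was small, at -0.39 ± 0.15 (adjusted p = 0.0439). Leaving out larval replicate 1 or 2, replicate 1 or 2 titled mitf or replicate 1 titled LacZ ended that call, at differences of -0.42 to -0.30, and also with library totals and without the mean-variance trend. Prepupae titled LacZ differed from larvae by 0.21 ± 0.15 (adjusted p = 0.222), which was called without replicate 2 titled LacZ (0.36) and with library totals (0.70).

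PGRP-SD (FBgn0035806, chromosome 3L, 7651180 to 7651900, plus strand, 1 exon) encodes a small secreted protein that assists recognition by the Toll sensors. It stood at 518.0, 359.0 and 283.3 in larvae, at 434.8, 488.9 and 448.9 in prepupae titled mitf, with 186.3, 423.9 and 331.3 in those titled LacZ. The libraries titled mitf all lay above those titled LacZ, and both overlapped with the larvae. The spread within the larvae and within the prepupae titled LacZ was wide (coefficients of variation of 31.0% and 38.2%), and none of the 3 comparisons was called. The difference between the prepupae was -0.62 ± 0.30 (adjusted p = 0.0838, 95% interval -1.28 to 0.04), and it was called without replicate 2 titled LacZ (-0.88) and with trimmed mean scaling (-0.83).

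PGRP-LC, which spans the plasma membrane and signals to the adaptor Imd, had the strongest rise among the receptors. The gene (FBgn0035976, chromosome 3L, 9338810 to 9348336, plus strand) has 10 annotated transcripts, which a table per gene does not separate. Levels were 214.3, 297.2 and 252.1 in larvae, against 2170, 2185 and 2492 in prepupae titled mitf, with 732.0, 919.5 and 893.1 in those titled LacZ. The groups were fully apart, in the order larvae, prepupae titled LacZ, prepupae titled mitf. The rise was 3.17 ± 0.14 on the log2 scale in prepupae titled mitf (adjusted p = 3.25e-08) and 1.74 ± 0.14 in prepupae titled LacZ (adjusted p = 1.38e-06). The direct difference of -1.43 ± 0.14 between the prepupae was called as well (adjusted p = 7.4e-06).

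PGRP-LE (FBgn0030695, chromosome X, 15801153 to 15803880, minus strand) encodes the receptor that senses peptidoglycan fragments inside cells. It was nearly constant among larvae, at 269.2, 257.4 and 263.5. It stood at 422.6, 438.7 and 475.5 in prepupae titled mitf, with 190.5, 267.3 and 185.7 in those titled LacZ, where 1 library lay within the larval range and 2 below it. It rose by 0.75 ± 0.15 in prepupae titled mitf (adjusted p = 0.00111) and was lower in prepupae titled LacZ than in those titled mitf, at -1.07 ± 0.15 (adjusted p = 9.19e-05). Against larvae, prepupae titled LacZ differed by -0.31 ± 0.15 (adjusted p = 0.0727). Leaving out replicate 2 titled LacZ made it a call (-0.48), as did trimmed mean scaling (-0.60), and library totals turned it to 0.17.

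The inhibitors of the IMD pathway, like its receptors, were highest in prepupae titled mitf. PGRP-LF (FBgn0035977, chromosome 3L, 9349609 to 9351489, plus strand) encodes a membrane protein that binds PGRP-LC and blocks its signalling without binding peptidoglycan. It was scarce in larvae, at 11.1, 9.97 and 7.77, which corresponds to an estimated 7.99, 7.99 and 9.99 reads. Levels were 147.1, 145.7 and 177.8 in prepupae titled mitf, with 15.9, 12.4 and 35.8 in those titled LacZ. All 3 groups were apart, but the prepupae titled LacZ lay close to the larvae and spread over a coefficient of variation of 59.1%. The rise in prepupae titled mitf was 3.90 ± 0.36 (adjusted p = 5.91e-06), and the difference between the prepupae was -2.96 ± 0.36 (adjusted p = 4.06e-05). The rise of 0.95 ± 0.36 in prepupae titled LacZ (adjusted p = 0.0349) was lost without larval replicate 2 or 3, without replicate 1 titled mitf or without replicate 3 titled LacZ (0.52 to 0.98). Trimmed mean scaling (0.68) and a fit of these groups alone ended it too.

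PGRP-LB (FBgn0037906, chromosome 3R, 11452849 to 11460552, minus strand) encodes an amidase that degrades peptidoglycan and so limits IMD signalling. It is itself a known target of that pathway. It stood at 138.0, 100.4 and 113.7 in larvae, at 472.3, 314.8 and 618.2 in prepupae titled mitf, with 128.0, 97.3 and 188.7 in those titled LacZ. Prepupae titled mitf lay above both other groups in every library, and the other two overlapped. The rise was 1.95 ± 0.29 in prepupae titled mitf (adjusted p = 0.000188), and prepupae titled LacZ differed from these by -1.76 ± 0.29 (adjusted p = 0.000345). Against larvae the prepupae titled LacZ differed by 0.19 ± 0.29 (adjusted p = 0.559, 95% interval -0.46 to 0.84), although library totals gave a called difference of 0.68. In both prepupa groups, replicate 3 had the most PGRP-LB and the most PGRP-LF.

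PGRP-LC and PGRP-LF are neighbours on the same strand, 1272 bases apart, and PGRP-LA ends 473 bases before PGRP-LC. PGRP-LA showed the same order of groups, with 7.01 ± 1.17 (SD, n = 3) in larvae, 363 ± 98.4 in prepupae titled mitf and 37.2 ± 6.86 in prepupae titled LacZ. UGP lies on the opposite strand and covers 44.4% of the exon bases of PGRP-LF. It averaged 7731 in larvae, 4574 in prepupae titled mitf and 344 in prepupae titled LacZ, while PGRP-LF was lowest in larvae. Between the prepupae, the means of both were lower in those titled LacZ. The part of UGP in the level of PGRP-LF was not tested. The libraries were made with a stranded kit, but the strand setting used in counting is not given in the sources used here.

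Markers of blood cells, which also use these pathways, were measured beside the receptors. The summed level of the 9 matched hemocyte markers, of 11 listed, ran from 911 to 2366 in larvae, 3429 to 4561 in prepupae titled mitf and 1976 to 3028 in prepupae titled LacZ. In prepupae titled mitf against larvae 3 of the 9 rose and 1 fell, and in prepupae titled LacZ against those titled mitf 1 was higher and 3 lower. These shares are near those of all genes for the 3 that rose (34.8%) and the 3 that were lower (31.6%). In prepupae titled mitf the sum was carried by crq and Pxn, which averaged 2102 and 1250. In larvae crq (463), PPO2 (378) and PPO1 (266) averaged the most. PPO1, PPO2 and Sr-CI did not rise in prepupae titled mitf against larvae (-0.12, -0.45 and -0.37, none called). Hml went the other way, with 160 ± 133 (SD, n = 3) in larvae, 16.0 ± 5.03 in prepupae titled mitf and 111 ± 1.71 in those titled LacZ. None of the 9 markers was at 0 in a whole group, with He under 10 in all larvae and Sr-CI under 10 in all prepupae titled LacZ. Their part in the differences of the receptors was not tested.

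Rel rose in both prepupa groups and was by far highest in prepupae titled LacZ. The gene (FBgn0014018, chromosome 3R, 9044183 to 9047977, minus strand) encodes Relish, the NF-kappaB factor of the IMD pathway. Levels were 1603, 1421 and 1380 in larvae, against 5008, 5006 and 4467 in prepupae titled mitf, with 16933, 17520 and 19616 in those titled LacZ. The 3 groups were far apart, with coefficients of variation of only 6.46% to 8.11% within groups. Rel rose by 1.72 ± 0.10 in prepupae titled mitf (adjusted p = 2.11e-07) and by 3.62 ± 0.10 in prepupae titled LacZ (adjusted p = 9.51e-10). It was higher in prepupae titled LacZ than in those titled mitf by 1.90 ± 0.10 (adjusted p = 8.47e-08). Among all tested genes, 34.2% differed by more in either direction between the prepupae. Rel therefore changed in the opposite direction from the IMD receptors and inhibitors between the prepupae.

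The summed levels of tubule and gut markers were also highest in prepupae titled LacZ. The summed level of 9 matched Malpighian tubule markers, of 10 listed, was 2253 to 2800 in larvae, 3408 to 3799 in prepupae titled mitf and 20622 to 23114 in prepupae titled LacZ. Between the prepupae 6 of the 9 were higher and 0 lower in those titled LacZ, beside 41.1% and 31.6% of all genes. CapaR was at 0 in all prepupae titled mitf. Gut markers, 7 of 11 matched, summed to 20.8 to 44.9, 46.1 to 58.5 and 338 to 858 in the same order. Between the prepupae 4 gut markers were higher and 2, LManVI and caup, lower in those titled LacZ, beside the same shares of all genes. The markers alphaTry and LManVI were at 0 in all larvae, and betaTry and Amy-p were at 0 in all prepupae titled mitf. The tubule sum in prepupae titled LacZ was carried mostly by ClC-a, NKAIN and Best1, which averaged 8686, 6160 and 4807 there. Not every marker followed the sums. LManVI, caup and ct averaged highest in prepupae titled mitf, and Jon65Aiv, ZnT35C and Oatp58Dc in larvae. The part of tubule and gut markers in the level of Rel was not tested.

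**Figure D2:**
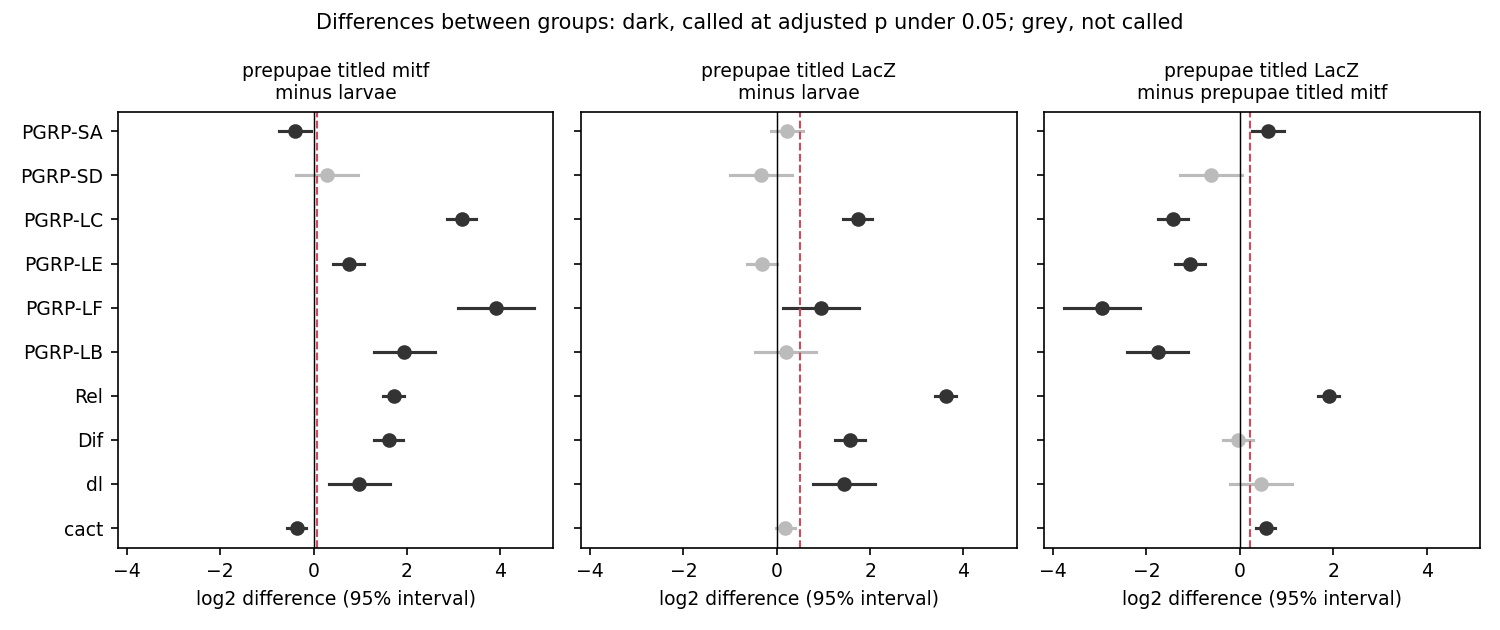
Log2 differences (points) with 95% intervals (lines) of the 10 genes in 3 comparisons, with called genes dark, other genes grey and the median of all genes as a dashed line. Rel lies to the right in all 3 panels, while the 4 IMD receptors and inhibitors lie right of 0 in the first panel and left of 0 in the last.

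The NF-kappaB genes of the Toll pathway were higher in both prepupa groups than in larvae but were not called between the prepupae. Dif (FBgn0011274, chromosome 2L, 17413248 to 17433161, minus strand) encodes the main factor of Toll-dependent immunity in the adult fly. It stood at 384.9, 446.7 and 544.1 in larvae, at 1420, 1357 and 1380 in prepupae titled mitf, with 1167, 1539 and 1362 in those titled LacZ. Both prepupa groups lay above all larvae and overlapped with each other. The rise was 1.61 ± 0.14 (adjusted p = 3.86e-06) and 1.57 ± 0.14 (adjusted p = 3.18e-06), and the prepupae differed by -0.04 ± 0.14 (adjusted p = 0.81). The 95% interval of that difference was -0.36 to 0.28, and its sign turned with library totals (0.39, not called).

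The gene dl (FBgn0260632, chromosome 2L, 17436830 to 17450364, minus strand) lies 3668 bases from Dif and encodes Dorsal, which patterns the embryo and also serves immunity in larvae. It stood at 200.4, 180.8 and 94.4 in larvae, at 325.0, 264.6 and 310.7 in prepupae titled mitf, with 477.1, 291.2 and 495.2 in those titled LacZ. The prepupa groups overlapped, and both lay above the larvae. It rose by 0.98 ± 0.29 in prepupae titled mitf (adjusted p = 0.0134) and by 1.44 ± 0.29 in prepupae titled LacZ (adjusted p = 0.00124). The difference of 0.45 ± 0.29 between the prepupae was not called (adjusted p = 0.189), except with library totals (0.88) and without replicate 2 titled LacZ (0.70).

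The inhibitor gene cact (FBgn0000250, chromosome 2L, 16313036 to 16326207, minus strand) did not rise with the factors its protein binds. It stood at 1890, 1955 and 1680 in larvae, at 1529, 1358 and 1402 in prepupae titled mitf, with 1973, 2127 and 2184 in those titled LacZ. The 3 groups did not overlap, with the prepupae titled mitf lowest and those titled LacZ highest. It fell by 0.36 on the log2 scale in prepupae titled mitf (-0.36 ± 0.09, adjusted p = 0.00546) and was higher by 0.55 ± 0.09 in prepupae titled LacZ than in those titled mitf (adjusted p = 0.000361). Against larvae the prepupae titled LacZ differed by 0.19 ± 0.09 (adjusted p = 0.0861), which was called at 0.68 with library totals and turned to -0.10 with trimmed mean scaling.

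Ratios between 2 genes of one library do not depend on how libraries are scaled to each other. In all, 15 comparisons of 5 ratios were made with two-sided exact permutation tests, whose smallest possible p with 3 against 3 libraries is 0.1, so that none could pass 0.05. The groups did not overlap in 12 of them, each at an exact permutation p of 0.1 (0.125 adjusted over the 15). The ratio of cact to the sum of Dif and dl was 2.99 ± 0.318 (SD, n = 3) in larvae, 0.848 ± 0.025 in prepupae titled mitf and 1.18 ± 0.0193 in prepupae titled LacZ. These ratios are of counts, not of transcript numbers, since cact has the shortest transcript of the 3. Per kilobase in prepupae titled mitf, cact stood at 607, above Dif at 322 and dl at 63.5, so a count ratio under 1 does not place cact below its partners there. The ratio of Rel to Dif and dl was 2.39 ± 0.309 in larvae, 2.87 ± 0.222 in prepupae titled mitf and 10.1 ± 0.513 in prepupae titled LacZ. Larvae and prepupae titled mitf overlapped in it (exact permutation p = 0.2).

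Among the receptors, the ratio of PGRP-LE to PGRP-LC was 1.06 ± 0.195 in larvae, 0.195 ± 0.00501 in prepupae titled mitf and 0.253 ± 0.0419 in prepupae titled LacZ. The fall from larvae was thus shared by both prepupa groups. PGRP-LF to PGRP-LC was 0.0387 ± 0.0113 in larvae, 0.0686 ± 0.00242 in prepupae titled mitf and 0.0251 ± 0.0136 in prepupae titled LacZ. The decoy gene therefore stood highest against the receptor in prepupae titled mitf, while larvae and prepupae titled LacZ overlapped (exact permutation p = 0.3). PGRP-LB to PGRP-LC was 0.478 ± 0.155, 0.203 ± 0.0535 and 0.164 ± 0.0536 in the same order. The prepupa groups overlapped in it (exact permutation p = 0.5).

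**Figure D3:**
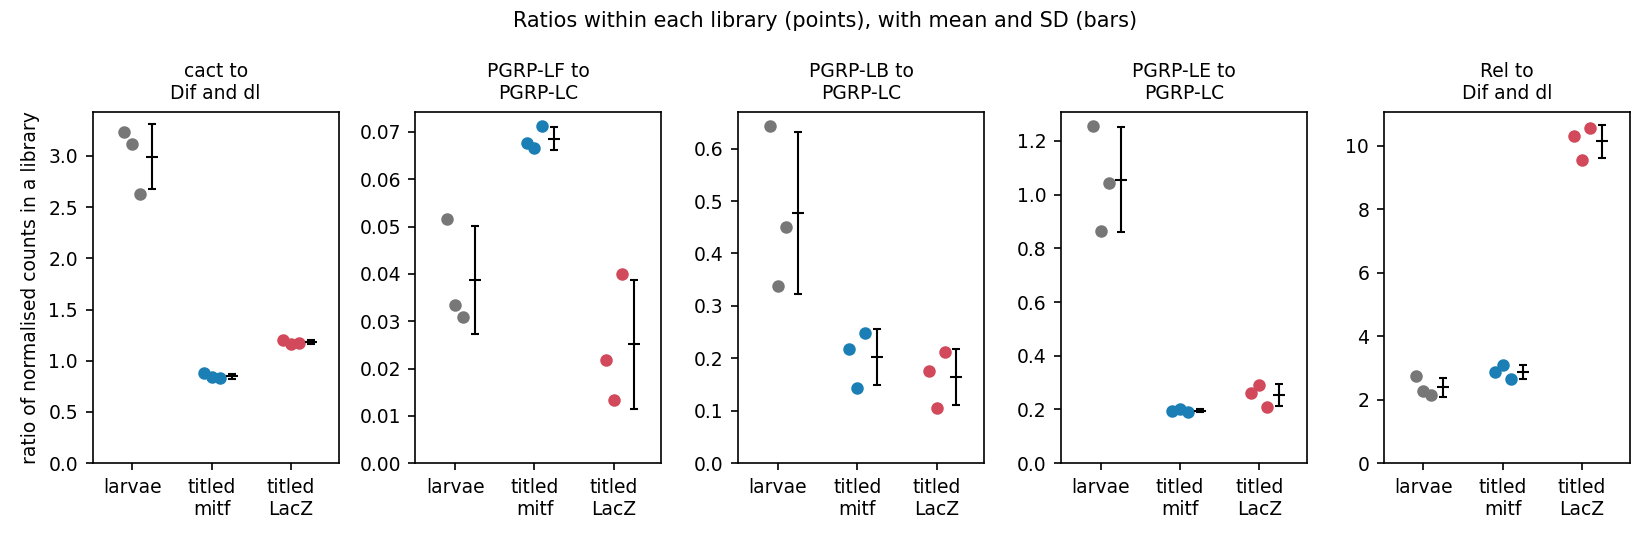
Ratios of normalised read counts within each of the 9 libraries (points), with group means and SD (bars), for 5 pairs of genes or gene sums. The ratio of cact to Dif and dl is highest in larvae, and that of Rel to Dif and dl is near 10.1 in prepupae titled LacZ against 2.39 and 2.87 in the other groups.

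Per kilobase of the longest annotated transcript, the order of levels among the 10 genes changed with the group. In larvae, cact led with 782 ± 61.0 normalised counts per kilobase, before PGRP-SA (690 ± 72.2) and PGRP-SD (536 ± 166), and each differed from the next by less than the sum of their SDs. Rel followed at 419 ± 34.0 per kilobase. In prepupae titled mitf, Rel led with 1379 ± 89.1, followed by PGRP-LC with 885 ± 70.4, which had been seventh in larvae at 98.7 ± 16.1. In prepupae titled LacZ, Rel stood at 5151 ± 403 per kilobase, well before cact (889 ± 46.4) and PGRP-SA (806 ± 147), and these 2 differed by less than the sum of their SDs. PGRP-LF was the lowest in larvae (7.09 ± 1.24) and in prepupae titled LacZ (15.8 ± 9.31), and dl was the lowest in prepupae titled mitf (63.5 ± 6.69).

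The other genes of these pathways were taken as lists. Of 10 other PGRP and glucan binding genes tested, 6 rose and 1 fell in prepupae titled mitf against larvae (median log2 difference 3.47, beside 34.8%, 31.7% and a median of 0.08 for all genes). The prepupae titled LacZ had 1 higher and 7 lower than those titled mitf (median -1.49, beside 41.1%, 31.6% and a median of 0.22 for all genes). PGRP-LA was lower in prepupae titled LacZ by -3.23 ± 0.26, as described beside its neighbours. PGRP-SC1b, an amidase gene of the gut with a near-identical copy, PGRP-SC1a, was listed at 0 in all larvae. It stood at 13.2, 9.50 and 221 in prepupae titled mitf and at 0.77 in 1 library titled LacZ, the other two at 0. The one gene of this list higher in prepupae titled LacZ was PGRP-LD, with 8854 ± 669 against 60.0 ± 25.8 in prepupae titled mitf and 39.8 ± 5.58 in larvae (log2 difference between the prepupae 7.27 ± 0.27, adjusted p = 7.88e-09).

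Upstream of Toll, the ligand and protease genes were called about as often as all genes in the first comparison. Of 9 tested, 4 rose and 3 fell in prepupae titled mitf against larvae, beside 34.8% and 31.7% of all genes, and prepupae titled LacZ had 3 higher and 5 lower than those titled mitf (median -0.998), beside 41.1% and 31.6%. SPE, the protease that processes the Toll ligand Spätzle, averaged 1412 ± 135 in larvae, 78.7 ± 0.912 in prepupae titled mitf and 364 ± 71.6 in prepupae titled LacZ. It was higher in the latter by 2.18 ± 0.15, and psh, a protease that senses microbial proteases, by 2.004 ± 0.167. The opposite held for modSP, at the head of the cascade, which averaged 540 ± 29.2, 3246 ± 75.7 and 412 ± 85.1 in larvae, prepupae titled mitf and prepupae titled LacZ (-2.996 ± 0.138 between the prepupae). The serpin gene nec, whose product restrains the cascade at psh, differed by -1.79 ± 0.14.

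Within the cell, genes of the Toll receptor and its signalling were mostly higher in prepupae titled LacZ. Of 11 tested, 8 were higher and 2 lower than in prepupae titled mitf (median 1.13), against 41.1% and 31.6% of all genes. Tl, the receptor Toll, averaged 1509 ± 206 in larvae, 875 ± 222 in prepupae titled mitf and 5471 ± 385 in prepupae titled LacZ (2.67 ± 0.17 between the prepupae). The adaptor gene Myd88 averaged 909 ± 87.0, 1486 ± 194 and 10198 ± 301 in the same order (2.79 ± 0.11). Lower in prepupae titled LacZ were Pli, the ubiquitin ligase Pellino (-1.45 ± 0.23), and the kinase gene Gprk2 (-1.12 ± 0.14). Against larvae, 6 of the 11 rose and 1 fell in prepupae titled mitf, beside 34.8% and 31.7% of all genes. The gene that fell was Tl itself (-0.81 ± 0.17, adjusted p = 0.00201).

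The genes between the IMD receptors and Relish were mostly lower in prepupae titled LacZ, where 41.1% of all genes were higher and 31.6% lower. Of 12 tested, prepupae titled LacZ had 3 higher and 9 lower than those titled mitf (median -0.69, or 3 and 6 with library totals). The caspase adaptor gene Fadd averaged 106 ± 21.6 in larvae, 123 ± 8.02 in prepupae titled mitf and 40.6 ± 2.36 in prepupae titled LacZ (-1.58 ± 0.19 between the prepupae). The ubiquitin conjugating enzyme gene eff differed by -1.64 ± 0.09. Higher in prepupae titled LacZ were Tab2, the partner of the kinase Tak1 (2.56 ± 0.11), and the ubiquitin conjugation gene Uev1A (0.75 ± 0.07). In prepupae titled mitf against larvae, 8 of the 12 rose and 0 fell (median 0.65), beside 34.8% and 31.7% of all genes.

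Of 10 negative regulators of IMD signalling tested, 4 were higher and 2 lower in the prepupae titled LacZ than in the others (median 0.12, or -0.04 with trimmed mean scaling). All genes had 41.1% higher and 31.6% lower, so the count is no result about this list. The gene casp, whose product Caspar restrains the cleavage of Relish, averaged 1114 ± 79.9 in larvae, 1320 ± 130 in prepupae titled mitf and 11653 ± 519 in prepupae titled LacZ (3.14 ± 0.10 between the prepupae). Tg, a transglutaminase known to act on Relish, was low throughout, at 7.82 ± 2.32, 1.44 ± 1.28 and 14.2 ± 4.496 (2.78 ± 0.50, or 1.57 with a pseudocount of 5). In contrast, pirk, whose product takes PGRP-LC off the cell surface, averaged 2.02 ± 1.09, 47.3 ± 4.53 and 10.4 ± 7.70 (-2.30 ± 0.47). The deubiquitinase gene CYLD averaged 76.7 ± 2.58, 480 ± 42.1 and 86.6 ± 14.8 (-2.47 ± 0.15). These 2 genes were named for their fall between the prepupae, so their higher level in prepupae titled mitf was fixed by that choice.

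Of 14 antimicrobial peptide genes, the classical targets of both pathways, 7 rose against larvae in prepupae titled mitf and 7 were not called, beside 34.8% of all genes higher. In prepupae titled LacZ 10 of the 14 rose, beside 46.3%, and 0 fell in either group. One of the 7, AttA, passed narrowly with overlapping groups (adjusted p = 0.0492) and was not called with a pseudocount of 5 (adjusted p = 0.0867). Dro, another of the 7, was called with overlapping groups as well. Prepupae titled mitf and larvae did not overlap for 5 of the 14, beside 71.1% of all genes. For prepupae titled LacZ and larvae it was 10, beside 79.9%. Between the prepupae 4 were higher and 3 lower in those titled LacZ, beside 41.1% and 31.6%. The prepupa groups did not overlap for 3 of the 14, the 3 that were lower, beside 76.1% of all genes. Drs, which encodes the antifungal peptide Drosomycin, averaged 11.2 ± 3.41 in larvae, 40410 ± 1367 in prepupae titled mitf and 838 ± 309 in prepupae titled LacZ (-5.65 ± 0.26 between the prepupae). Mtk, encoding Metchnikowin, stood at 41.1, 4.91 and 11.6 in larvae, at 1936, 1486 and 5564 in prepupae titled mitf, with 21.4, 1.76 and 42.5 in those titled LacZ. Its difference between the prepupae was -7.50 ± 1.03, and -6.34 and -8.32 without replicate 2 or 3 titled LacZ. The cecropin genes CecB and CecC, which have close copies, were higher in prepupae titled LacZ by 4.81 ± 1.48 and 4.52 ± 1.76, with overlapping groups in both. CecB stood at 0.91, 0 and 22.3 in prepupae titled mitf, with 221, 20.4 and 207 in those titled LacZ. CecC stood at 2.73, 6.52 and 44.5 in prepupae titled mitf, with 422, 41.5 and 853 in those titled LacZ. The call of CecB was lost without replicate 2 titled mitf (3.90, adjusted p = 0.0556). That of CecC was lost without any 1 of larval replicate 1, replicates 1 and 2 titled mitf and replicates 1 and 3 titled LacZ (3.63 to 4.52), without the mean-variance trend, and with a pseudocount of 0.1.

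**Figure D4:**
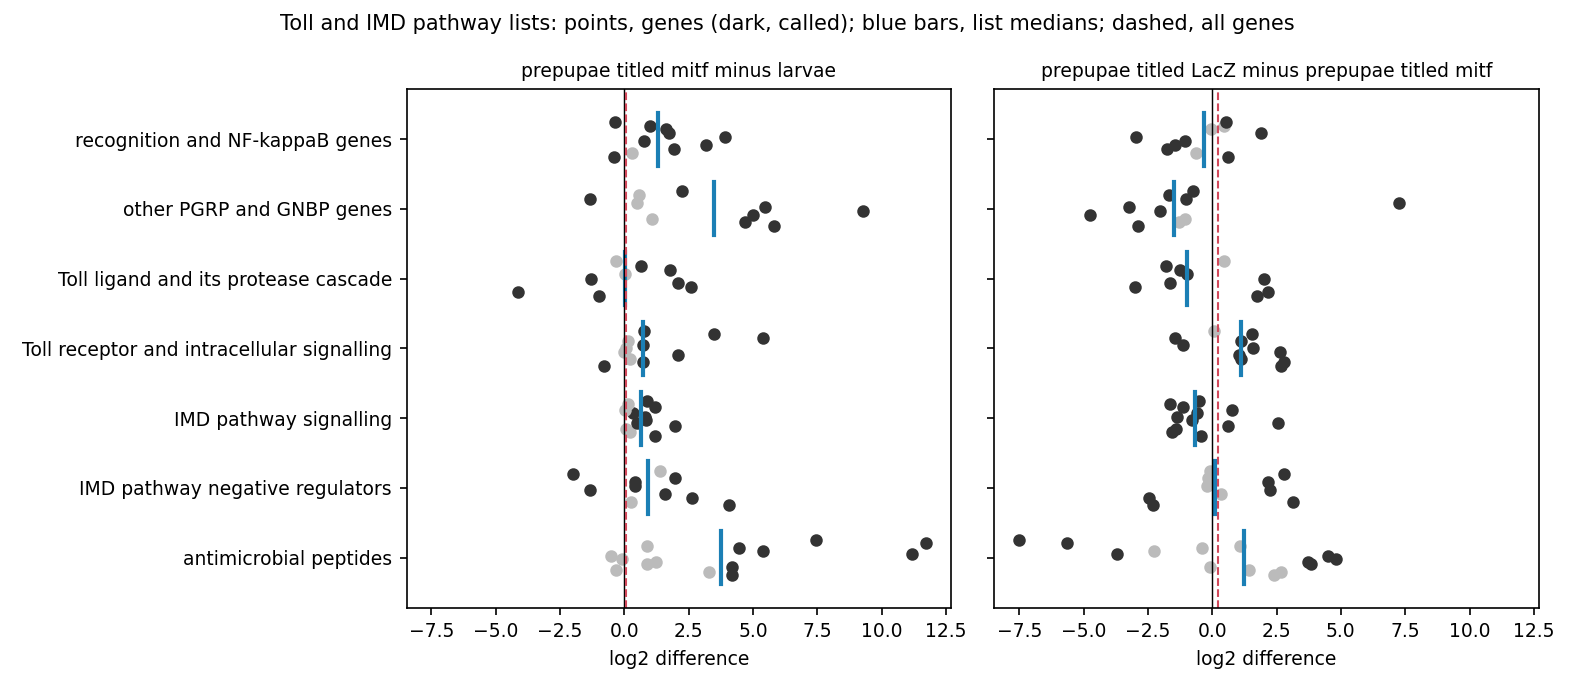
Log2 differences of single genes (points, dark where called) in the 10 genes described and 6 further lists of the Toll and IMD pathways, with list medians (blue bars) and the median of all genes (dashed line), for prepupae titled mitf minus larvae (left) and prepupae titled LacZ minus prepupae titled mitf (right). The other PGRP and glucan binding genes lie mostly right of 0 on the left, with a median of 3.47. They lie mostly left of 0 on the right, with a median of -1.49. Toll receptor and signalling genes have a median of 1.13 on the right.

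For each of the 10 genes, the tested genes that varied most alike were found by Pearson correlation of log2 values over the 9 libraries. The 10 genes themselves and genes with only a CG or CR number as symbol were left out. The libraries fall into 3 groups, so that many genes correlate closely, and a high r does not mean similar levels. The value r is given as a description. For Rel these were gzl (0.997) and emc (0.997), and 405 named genes had r above 0.95. For PGRP-LC they were dia (0.995) and Corin (0.995), with 265 such genes. PGRP-LB was closest to Mtk (0.979), the antimicrobial peptide gene above, and to upd1 (0.973), which encodes a cytokine of the JAK/STAT pathway, with 24 such genes. PGRP-LF was closest to Cyp12d1-p (0.987) and Cda9 (0.984), PGRP-LE to PlexB (0.987) and Vps29 (0.985), and Dif to rost (0.996) and Irk1 (0.993). For cact they were GCS2alpha (0.982) and Lpin (0.976), and for dl Syx8 (0.991) and bark (0.966), with only 3 genes above 0.95. PGRP-SA and PGRP-SD had no gene above 0.95, the closest being ImpL2 (0.944) and GstE1 (0.941) for the first and Rbbp5 (0.908) and DCTN3-p24 (0.828) for the second.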

How the data were processed

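Messenger RNA was sequenced from 9 fat body libraries with a stranded kit. Per the submitters' processing notes, the tools were bcl2fastq, Salmon 1.5.2 and DESeq2 with build BDGP6; their settings are not given in the sources used here. The deposited values were a normalised signal per gene, scaled by the authors to an equal median ratio to the genes' geometric means (0.993 in each library). They were not whole reads, though 68.8% to 75.9% of low values lay within 0.05 of whole multiples of one step, which gave the estimated reads.

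Symbols and positions came from an Ensembl annotation of BDGP6 (10189 of 10242 identifiers matched). Values were tested as log2(value + 1) in limma 3.58.1 (R 4.3.3), using its trended prior, after dropping genes that reached 1 in fewer than 3 libraries (10139 genes kept, 103 left out). All 9 libraries entered 1 fit with a mean per group. Tests were two-sided, adjusted by Benjamini-Hochberg over all genes tested and called at 0.05. Fold changes are on the log2(value + 1) scale, which understates those of low genes. The procedure was tested on simulated data, with the spread of each gene capped and differences planted only above a low level. That test does not cover genes of wide spread or low level. Ratios were compared by exact permutation in SciPy 1.17.1.

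The 10 genes and all lists were chosen with earlier results of these data known. Of each pathway list, up to 2 called genes each way with the largest difference between the prepupae were named, if the higher group averaged at least 10. Groups follow the titles, and nothing in the labels says whether replicates were separate crosses, so p-values may reflect technical spread. Alternatives covered the pseudocount, filter, scaling, samples fitted, variance trend, replicate block and each library left out.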

Additional observations from a re-analysis of the deposited data

How the results depend on the processing

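Counts of called genes over all genes stayed within 1.5 times in the 18 alternatives of each comparison, and the counts over the 10 genes did too, except that library totals called 8 rather than 5 of them in prepupae titled LacZ against larvae (4 to 7 with 1 library left out). With the replicate block, 7 of the 10 genes were called between the prepupae, 8 in prepupae titled mitf against larvae and 5 in prepupae titled LacZ against larvae. The one call it ended among the 10 was that of PGRP-SA in prepupae titled mitf (adjusted p = 0.0614). Over all tested genes, libraries sharing a replicate number did not deviate together (r from -0.0653 to 0.0888 over 9 pairs). A correlation over all genes cannot show whether a small set deviated together, such as the genes below that were highest in replicate 3.

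No called difference of the 10 genes changed sign. Signs that turned were those of small uncalled differences. They were Dif between the prepupae with library totals (0.39) and without replicate 1 titled LacZ (-0.136 to 0.0637 over libraries left out). In prepupae titled LacZ against larvae they were PGRP-SD (0.15) and PGRP-LE (0.17) with library totals, and PGRP-SA (-0.0716), PGRP-LB (-0.0909) and cact (-0.0971) with trimmed mean scaling. PGRP-LB also turned without replicate 3 titled LacZ (-0.0595 to 0.415 over libraries left out). The cause was not tested, beyond the shift of all genes that each scaling brings. The ratios kept their direction in all 105 alternatives run. Depth limits PGRP-LF in larvae most, with under 10 estimated reads per library.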

Other observations

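The genes named next are recognition genes outside the 10, picked with their values in view. PGRP-SC2, an amidase gene known from the gut, stood at 2.76, 8.70 and 14.7 in larvae, against 5410, 2878 and 8932 in prepupae titled mitf, with 1443, 917 and 1491 in those titled LacZ. It rose by 9.28 ± 0.53 in the former against larvae and by 7.24 ± 0.53 in the latter, on the log2 scale, and differed by -2.05 ± 0.53 between the prepupae (adjusted p = 0.00579 in limma). PGRP-SB1, another amidase gene, averaged 48.9 ± 58.5 (SD, n = 3) in larvae, 1758 ± 178 in prepupae titled mitf and 244 ± 81.8 in prepupae titled LacZ. The glucan sensor gene GNBP3, which senses fungi, rose in both prepupa groups, by 2.25 ± 0.13 and 1.498 ± 0.127, while GNBP1, a partner of PGRP-SA in Toll activation, fell in both, by -1.32 ± 0.19 and -2.32 ± 0.19.

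Replicate 3 was the highest library of its group in both prepupa groups for PGRP-LB, PGRP-LF, PGRP-SC2, Mtk and DptA. These genes were picked for that pattern, and its share among all genes was not counted. Other genes of the lists went otherwise. Drs was lowest in replicate 3 titled mitf (39192) and highest in replicate 1 titled LacZ (1194). PGRP-LA was lowest in replicate 3 titled LacZ (30.7). DptA, which encodes the IMD target Diptericin, stood at 2452, 4975 and 24913 in prepupae titled mitf, with 422, 315 and 999 in those titled LacZ. Rel was lowest in replicate 3 titled mitf, at 4467, and highest in replicate 3 titled LacZ, at 19616.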
